A study of Mus musculus with 4 samples.

Results

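Fibroblast growth factor (FGF) receptors and the genes that report their signal were followed through the astrocytes of injured and uninjured mouse spinal cord. The set comprised 9 of 32287 measured genes. These were the receptors Fgfr1, Fgfr2 and Fgfr3, the ETS family transcription factors Etv4 and Etv5, the feedback inhibitors Spry1, Spry2 and Spry4, and the ERK phosphatase Dusp6. Etv4 was selected on its measured ratio of injured to uninjured level in astrocyte-like cells, which was among the 10 lowest, and the other genes were taken as its pathway. The injured against uninjured contrast of Etv4 in astrocyte-like cells is therefore a description here.

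FGF receptors are tyrosine kinases at the cell surface. When a ligand binds together with heparan sulfate, they recruit the adaptor FRS2 and switch on the RAS, RAF, MEK and ERK kinases. ERK signalling raises transcription of Etv4 and Etv5, and also of Sprouty genes and Dusp6, whose products dampen the same pathway. In the adult central nervous system Fgfr3 is a widely used marker of astrocytes, and FGF signalling is known for a part in how astrocytes hold their resting state and respond to damage.

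The cells came from adult mice in which a tamoxifen-inducible Cre under the promoter of Cx30 (Gjb6, an astrocyte gap junction gene) switched on the red reporter tdTomato. All mice, injured and uninjured, had received a pool of enhancer viruses (AAV) in the blood, and both groups therefore carried the virus as well as the reporter. The injured group had a contusion of the mid-thoracic cord and was sampled 3 days later. A segment of 5 mm around the lesion, or of the same level in uninjured mice, was dissociated and tdTomato-positive cells were sorted. Per the methods, a few mice of both sexes were pooled per condition, but astrocyte-like cells scored female and male numbered 74 and 127 in injured and 2 and 2514 in uninjured cord. There was 1 gene expression library per condition, so no difference between conditions below has a replicate check and no p-value is given. In place of a test, levels carry exact Poisson 95% intervals and ratios exact binomial 95% intervals, and both cover counting error only. A level is given as CPM, the unique molecular identifiers (UMIs) of a gene per 1000000 gene UMIs of the summed cells.

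After filtering, the injured library held 879 cells with 8499672 gene UMIs and the uninjured library 4159 cells with 15543460. Of these, 389 injured and 3632 uninjured cells fell in astrocyte-like clusters, which had been drawn without use of the 9 genes, with all 8 astrocyte markers detected in both conditions. The sort also delivered cells of other classes, and those with at least 20 cells in both conditions were ependymal-like (144 injured, 31 uninjured), fibroblast-like (43, 95), endothelial-like (70, 26) and microglia-like (128, 31) cells. OPC-like cells, the precursors of oligodendrocytes, numbered 46 injured and 14 uninjured. A further cluster of 46 injured and 327 uninjured cells carried astrocyte markers but was led by neuronal genes and stayed unnamed. The libraries shared 7 cell barcodes, of which 3 were in kept cells. Within astrocyte-like cells the summed microglial markers were 67.7 CPM after injury and 6.19 CPM without it, fibroblast markers 115 and 85.9 CPM, OPC markers 322 and 405 CPM, and the nuclear RNA Malat1 28886 and 75537 CPM. Mitochondrial transcripts took 7.29% and 6.42% of their gene UMIs. Summed astrocyte markers in the other classes were also unlike between the conditions. They were 1269 CPM after injury and 1874 CPM without in ependymal-like cells, and 1016 and 1906 CPM in fibroblast-like cells. In endothelial-like cells they were 89.5 and 613 CPM, and in microglia-like cells 53.4 and 214 CPM. The part of these differences in the results below was not tested.

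The 3 receptors had distinct distributions over the cell classes. Fgfr3 was concentrated in astrocyte-like cells. It was measured at 567 CPM (555 to 580) in uninjured and 338 CPM (314 to 363) in injured astrocyte-like cells, and at 480 CPM (438 to 525) in the uninjured cells of the unnamed cluster. Its highest level in another named class was 101 CPM (57.7 to 164) in uninjured ependymal-like cells. In the injured library, astrocyte-like cells exceeded OPC-like cells 26.5-fold (15.4 to 50), ependymal-like cells 17.9-fold (12.6 to 26.4) and fibroblast-like cells 27.1-fold (14.2 to 59.5) in Fgfr3. Microglia-like cells, which should lack it, had 3 Fgfr3 UMIs in each library. At their unlike depths this was 1.59 CPM (0.327 to 4.64) in injured and 25.7 CPM (5.29 to 75) in uninjured cord.

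Fgfr1 had its highest level in fibroblast-like cells, at 314 CPM (256 to 380) without injury and 158 CPM (130 to 190) after it. In uninjured cord this was 5.82-fold (4.69 to 7.16) the level of astrocyte-like cells, and in injured cord 1.44-fold (1.14 to 1.81). Ependymal-like cells held 86.1 CPM of Fgfr1 in injured and 63.1 CPM in uninjured cord. Endothelial-like cells held 14.7 and 18.9 CPM, and injured microglia-like cells 2.64 CPM.

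Fgfr2 had UMIs in all classes of at least 10 cells in both conditions. It was at 252 CPM (244 to 261) in uninjured and 139 CPM (124 to 156) in injured astrocyte-like cells, and at 265 CPM (191 to 358) and 172 CPM (153 to 193) in ependymal-like cells. In uninjured cord the astrocyte-like and ependymal-like levels did not separate, with a ratio of 0.952 (0.703 to 1.32). Injured microglia-like cells had 91 Fgfr2 UMIs beside 3 of Fgfr3, whereas injured astrocyte-like cells had 304 and 739. The gene model of Fgfr2 bears on this reading. In GENCODE M21 on GRCm38 it runs from 130162451 to 133123350 on chromosome 7, minus strand, a span of 2960900 bases that overlaps 22 other counted genes on the same strand. Its values are therefore uncertain. None of the other 8 genes overlapped a counted gene on its own strand. Fgfr3 lies on chromosome 5 (33721674 to 33737068, plus strand) and Fgfr1 on chromosome 8 (25513654 to 25575718, plus strand).

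**Figure D1:**
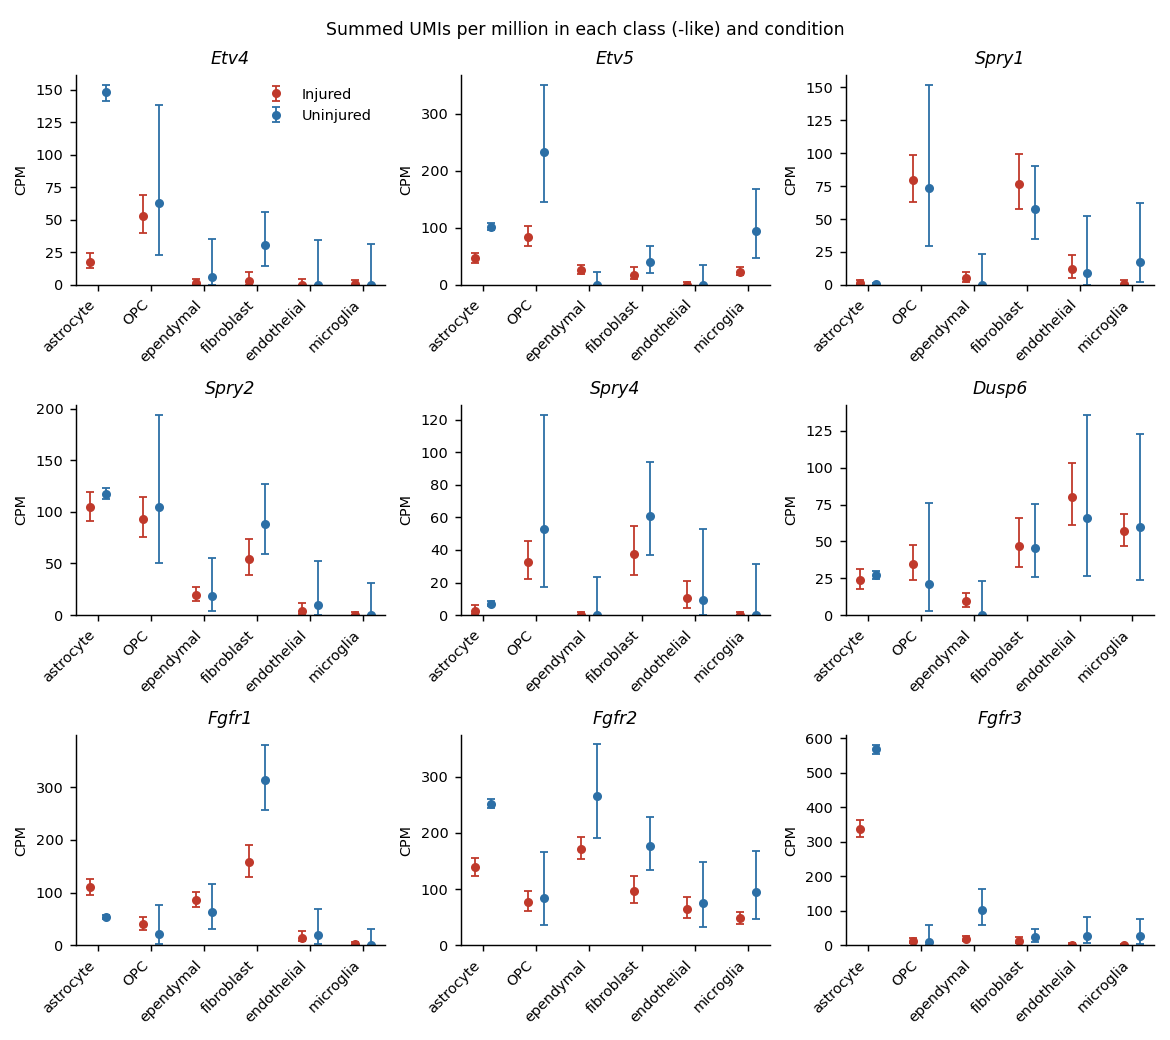
Level of each of the 9 genes (y axis, CPM) in 6 classes (x axis) of injured (red) and uninjured (blue) cord, as the sum over cells with Poisson 95% intervals. Fgfr3 stands far above the other classes in astrocyte-like cells, and Etv4 is at 17.8 CPM in injured against 148 CPM in uninjured astrocyte-like cells.

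Between conditions the receptors of astrocyte-like cells differed in direction. Fgfr1 was 53.8 CPM (739 UMIs, 50 to 57.9) in the uninjured and 110 CPM (240 UMIs, 96.3 to 125) in the injured library, a ratio of 2.04 (1.75 to 2.36). Fgfr3, at the levels given above, had a ratio of 0.596 (0.552 to 0.643), and Fgfr2 one of 0.551 (0.488 to 0.62). The intervals of the conditions did not overlap for any of the 3 receptors.

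The ETS factors were lower in the injured library. Etv4 (chromosome 11, 101769742 to 101785371, minus strand) was 148 CPM in uninjured cells (2029 UMIs, 141 to 154) and 17.8 CPM in injured cells (39 UMIs, 12.7 to 24.4), which is 8.29-fold lower. At least 1 UMI of Etv4 was found in 38% of the uninjured cells and in 8.74% of the injured ones, at median depths of 3415.5 and 3807 gene UMIs. With cells thinned to 1000 gene UMIs these shares were 12.9% and 2.81%. In microglia-like cells, at a median of 13724 gene UMIs in injured cord, the share was 1.56%, and it was 0 of 31 in uninjured cord, which allows up to 9.68%. In astrocyte-like cells Etv4 ranked 9th from the lowest of 4203 genes that reached 50 CPM in either condition, with a log2 ratio of -2.98. Ranks 1 to 4 were haemoglobin genes, led by Hbb-bs at 200 CPM in uninjured and 3.2 CPM in injured cells. The genes on either side of the limit of 10 were Nat8f3 at -2.80 and Dao at -2.76.

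Etv5 (chromosome 16, 22381309 to 22439719, minus strand), the paralogue of Etv4 in the set, was 102 CPM in uninjured cells (1403 UMIs, 97 to 108) and 46.6 CPM in injured cells (102 UMIs, 38 to 56.6). Its ratio was 0.456 (0.369 to 0.558). The highest Etv5 level of any class was in OPC-like cells, with 232 CPM (145 to 351) in uninjured and 84.4 CPM (67.5 to 104) in injured cord. In injured cord OPC-like cells exceeded astrocyte-like cells 1.81-fold (1.34 to 2.44) in Etv5 and 2.97-fold (1.93 to 4.61) in Etv4. In uninjured cord the order of Etv4 was the other way round, at 63.3 CPM (6 UMIs) in OPC-like and 148 CPM in astrocyte-like cells, a ratio of astrocyte-like to OPC-like cells of 2.34 (1.07 to 6.37). Uninjured OPC-like cells were 14 in number.

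Of the feedback inhibitors in astrocyte-like cells, Spry2 and Dusp6 had ratios whose intervals included 1, and Spry4 had one below 1 on few UMIs. Spry2 (chromosome 14, 105891947 to 105896819, minus strand) was 117 CPM in uninjured (1611 UMIs, 112 to 123) and 105 CPM in injured cells (229 UMIs, 91.6 to 119), with a ratio of 0.892 (0.773 to 1.03). Dusp6 (chromosome 10, 99263231 to 99267489, plus strand), which dephosphorylates ERK, was 27 CPM (370 UMIs, 24.3 to 29.9) and 23.8 CPM (52 UMIs, 17.8 to 31.2), with a ratio of 0.882 (0.647 to 1.18). These intervals leave room for a Spry2 level 0.773 times and a Dusp6 level 0.647 times that of uninjured cells. Spry4 was low, at 6.85 CPM (94 UMIs) in uninjured and 2.74 CPM (6 UMIs) in injured cells, a ratio of 0.401 (0.143 to 0.905). Spry1 (chromosome 3, 37639947 to 37644598, plus strand) was scarce in astrocyte-like cells, with 10 UMIs in uninjured and 3 UMIs in injured cells.

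The Sprouty genes that were scarce in astrocyte-like cells had their counts elsewhere. Spry1 was 79.5 CPM in injured and 73.8 CPM in uninjured OPC-like cells, and 76.2 and 57.8 CPM in fibroblast-like cells. Spry4 was 32.4 and 52.7 CPM in OPC-like and 37.4 and 60.9 CPM in fibroblast-like cells. Dusp6 was highest in endothelial-like cells (80.1 CPM injured, 66 CPM uninjured) and microglia-like cells (57.1 and 59.9 CPM), and neither class separated the conditions, with ratios of 1.21 (0.554 to 3.15) and 0.954 (0.447 to 2.43). Endothelial-like cells had 0 UMIs of Etv4 and of Etv5 in both conditions, which allows up to 4.01 CPM after injury and 28.3 CPM without.

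The promoters of Dusp6 and Etv5 are shown because the former did not separate the conditions and the latter did. They are RefSeq windows of GRCm38.p6 from 250 bases before to 50 bases after a transcription start, with capitals marking the letters AGGAAG, an ETS core of the PEA3 group to which Etv4 and Etv5 belong, searched on both strands. Dusp6 has 1 window (chromosome 10, 99262981 to 99263280, plus strand) and Etv5 has 2 (chromosome 16, minus strand, 22439521 to 22439820 and 22438319 to 22438618).
Dusp6: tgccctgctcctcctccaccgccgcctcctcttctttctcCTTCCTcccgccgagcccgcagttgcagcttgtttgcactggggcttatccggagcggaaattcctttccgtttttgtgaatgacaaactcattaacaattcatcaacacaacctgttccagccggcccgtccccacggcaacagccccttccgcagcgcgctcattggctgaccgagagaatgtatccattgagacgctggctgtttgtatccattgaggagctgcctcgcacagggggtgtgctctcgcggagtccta
Etv5 upstream start: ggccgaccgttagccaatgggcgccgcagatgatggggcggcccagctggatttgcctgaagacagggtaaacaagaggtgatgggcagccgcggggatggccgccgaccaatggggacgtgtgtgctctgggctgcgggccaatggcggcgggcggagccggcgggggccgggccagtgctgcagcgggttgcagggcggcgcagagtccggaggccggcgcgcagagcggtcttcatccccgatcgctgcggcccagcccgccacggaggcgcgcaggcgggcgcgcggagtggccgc
Etv5 downstream start: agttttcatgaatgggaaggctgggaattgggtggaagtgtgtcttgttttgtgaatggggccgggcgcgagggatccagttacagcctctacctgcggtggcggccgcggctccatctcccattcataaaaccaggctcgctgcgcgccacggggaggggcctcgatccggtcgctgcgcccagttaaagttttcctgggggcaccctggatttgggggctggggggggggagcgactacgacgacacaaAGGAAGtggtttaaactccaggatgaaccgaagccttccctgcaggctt
The core stood 1 time in the Dusp6 window, on the opposite strand from base -210 relative to the start, and 1 time in the downstream Etv5 window from base 2. It was not in the upstream Etv5 window. Of 32851 promoter windows of this length, 35.4% held the core, so its presence does not set these windows apart. The longer ETS letters CCGGAAG, in 8.86% of all windows, and the AP-1 letters TGACTCA, in 5.2%, were in none of the 8 windows of the 6 genes read (Spry1, Spry2, Dusp6, Etv5, Fgfr2 and Fgfr3).

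Counted at 2-fold (a log2 ratio of at least 1 or at most -1 after adding 1 CPM), 1 of the 7 genes with a mean of at least 10 CPM was higher in injured astrocyte-like cells (Fgfr1) and 2 were lower (Etv4 and Etv5). Over all 9437 genes that passed the same filter, 11.6% were higher and 6.27% lower. Spry1 and Spry4 did not pass. The median log2 ratio of the 7 genes was -0.75, beside 0.02 for all genes, but both the count and the median include Etv4, whose ratio selected the set. Without Etv4, 1 of 6 genes was higher, 1 lower, and the median was -0.46. Fgfr1 lies at the limit with a log2 ratio of 1.01, and it fell short of it under 9 of the alternatives tried.

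Within the astrocyte-like class, the largest injured group was a cluster led by Gfap, Lcn2 and Timp1, genes of reactive astrocytes, which held 79.7% of the astrocyte-like cells from injured cord and 0.358% of those from uninjured cord. The remaining astrocyte-like clusters were mostly uninjured, but 2 of them (numbered 4 and 10) held 38 and 26 injured cells beside 1001 and 658 uninjured ones. In cluster 4 Etv4 was 11.3 CPM after injury and 170 CPM without, and in cluster 10 it was 6.73 and 119 CPM. The injured values rest on 1 UMI each, and the upper limits of the ratios were 0.373 and 0.319. For Etv4 these clusters are parts of the contrast that selected it. Etv5 was lower in the same clusters, with ratios of 0.194 (0.0234 to 0.709) and 0.244 (0.066 to 0.63).

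The receptors behaved differently within these clusters. Fgfr1 was 113 CPM after injury and 51.5 CPM without in cluster 4, and 114 and 66.2 CPM in cluster 10, with ratios of 2.2 (1.03 to 4.16) and 1.73 (0.986 to 2.84). Fgfr3 was 464 and 659 CPM in cluster 4, a ratio of 0.703 (0.503 to 0.958), and 431 and 486 CPM in cluster 10, a ratio of 0.887 (0.679 to 1.14). The Fgfr2 ratios of 0.857 (0.52 to 1.33) and 0.901 (0.63 to 1.25) both included 1. Without the Gfap and Lcn2 cluster, the log2 ratios of the class were -0.26 for Fgfr3 and -0.22 for Fgfr2, while that of Etv4 was -4.28. Spry2 and Dusp6 then stood at -0.95 and -1.86. Of the injured UMIs, the Gfap and Lcn2 cluster held 37 of 39 for Etv4, 50 of 52 for Dusp6 and 211 of 229 for Spry2. The values without it therefore rest on few injured UMIs. In cluster 10 Spry2 was 47.1 CPM after injury and 110 CPM without, a ratio of 0.429 (0.171 to 0.895), and this was the only cluster of these 2 in which its interval excluded 1.

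**Figure D2:**
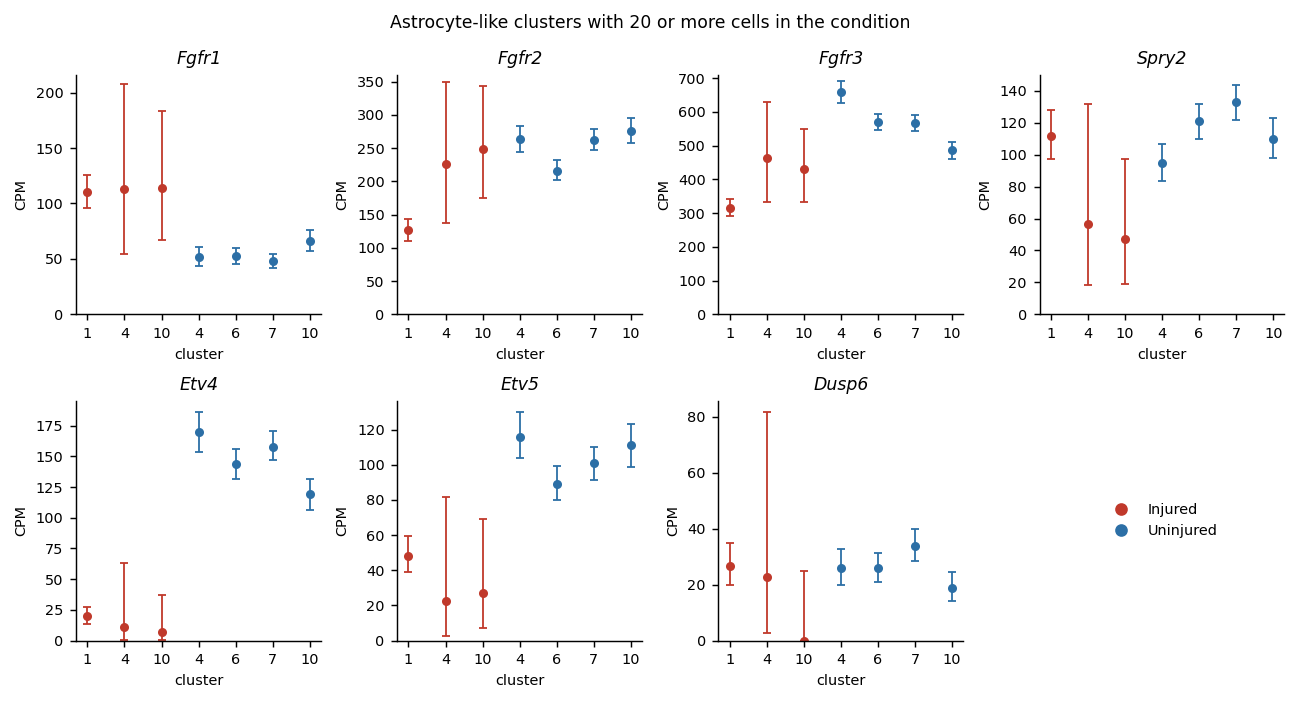
Level (y axis, CPM with Poisson 95% intervals) of 7 genes in the astrocyte-like clusters with at least 20 cells in a condition (x axis, cluster number), injured in red and uninjured in blue. Etv4 lies between 6.73 and 19.6 CPM in the 3 injured groups and between 119 and 170 CPM in the 4 uninjured groups, while the injured and uninjured groups of Fgfr2 overlap outside cluster 1. Etv4 was selected on the contrast of these conditions.

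The few cells that sat in a cluster typical of the other condition gave a further comparison, chosen after their values were seen. The Gfap and Lcn2 cluster held 13 uninjured cells. These had Etv4 at 113 CPM (9 UMIs, 51.8 to 215), against 19.6 CPM in the 310 injured cells of the same cluster, a ratio of 0.173 (0.0821 to 0.408). Their Fgfr3 level was 314 CPM against 316 CPM in those injured cells, and Fgfr2 138 against 127 CPM. Conversely, 15 injured cells lay in the uninjured clusters 6 and 7. They had 0 Etv4 UMIs against 151 CPM in the 1960 uninjured cells, with an upper limit of 0.389 for the ratio, and Fgfr3 at 589 CPM against 568 CPM. These are descriptions of few cells, and for Etv4 they come from the same contrast that selected it. For Etv5 the ratios of 0.767 (0.317 to 2.42) and 0.837 (0.271 to 1.96) included 1.

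Etv4 and the receptors were also compared at matched depth and by sex. For Etv4 these are subsets of the contrast that selected it, and its values are descriptions. Among astrocyte-like cells with over 500 to 2000, over 2000 to 5000 and over 5000 gene UMIs, the Etv4 ratios were 0.18 (0.0368 to 0.537), 0.0808 (0.0296 to 0.176) and 0.131 (0.0875 to 0.188). Those of Etv5 were 0.431, 0.449 and 0.456, each with an interval below 1. Dusp6 was at 0.433 (0.157 to 0.959) in the middle range and at 1.02 (0.711 to 1.45) in the highest. Fgfr1 was higher in injured cells in the upper 2 depth ranges, with ratios of 2.13 (1.58 to 2.82) and 2.11 (1.74 to 2.55), but not in the lowest, where it was 0.861 (0.304 to 1.98) on 6 injured UMIs. The Fgfr3 ratio moved with depth, from 0.395 (0.265 to 0.57) in the lowest range through 0.497 (0.418 to 0.587) to 0.685 (0.624 to 0.749) in the highest. In the same ranges Malat1 was 14818, 13658 and 34720 CPM after injury and 46989, 73056 and 84120 CPM without.

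**Figure D3:**
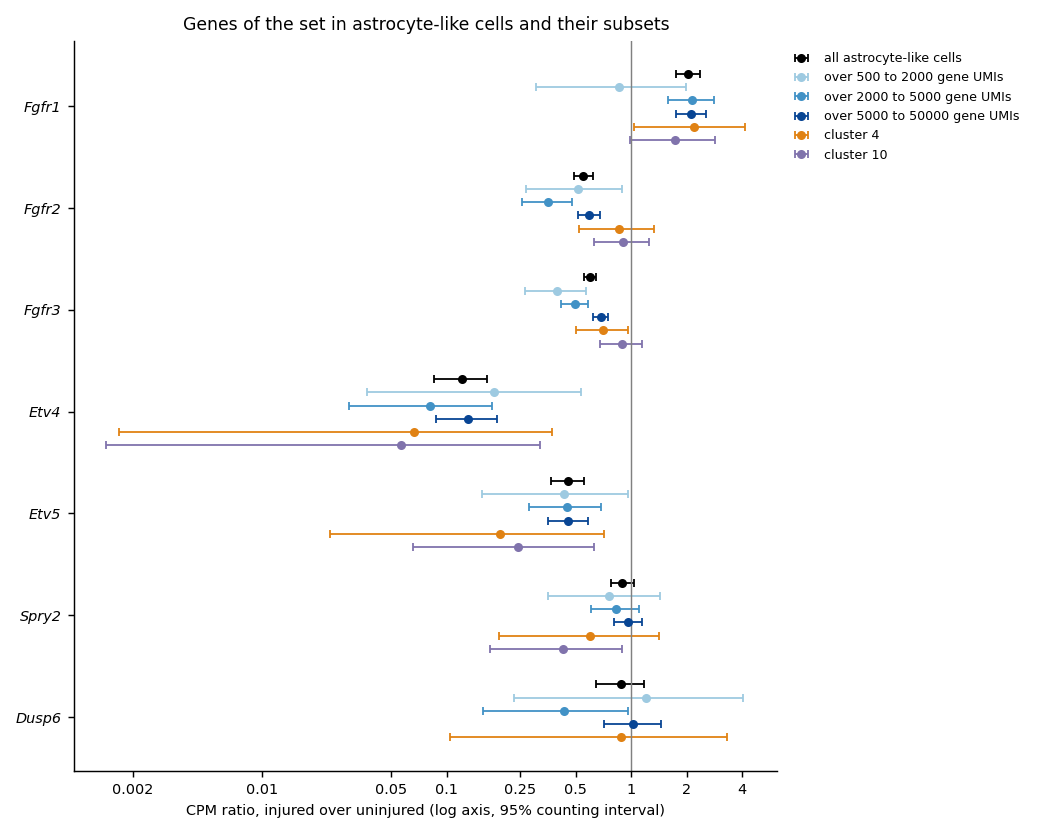
Ratio of CPM in injured over uninjured cells (x axis, log scale, with exact 95% counting intervals) for 7 genes in all astrocyte-like cells, in 3 depth ranges and within clusters 4 and 10. Every interval of Etv4 and Etv5 lies below 1, and those of Spry2 and Dusp6 include 1 except for Spry2 in cluster 10 and Dusp6 in the middle depth range. The Etv4 intervals come from the contrast that selected it and its subsets. Dusp6 in cluster 10 is not drawn because it had 0 injured UMIs.

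Cells had been scored by Xist and 4 Y-linked genes, and with the numbers given above the conditions can be compared in male cells alone. Etv4 was 16 CPM (9.15 to 26) in injured and 149 CPM (142 to 156) in uninjured male cells, and 23.1 CPM (12.9 to 38.1) in injured female cells. Etv5 was 48, 99.4 and 50.8 CPM in the same order, Fgfr1 112, 55 and 128 CPM, and Fgfr3 358, 565 and 395 CPM. The intervals of injured males and females overlapped for all 4 genes. Depth was not matched here, since scored male cells had a median of 6843 gene UMIs in injured and 3888 in uninjured cord. The 188 unscored injured cells had a median of 2304.5 gene UMIs and Fgfr3 at 231 CPM. The 1116 unscored uninjured cells had a median of 2405.5 and Fgfr3 at 573 CPM.

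Among injured astrocyte-like cells, those with a UMI of Lcn2 or Timp1 (175 cells) had more Etv4 and Dusp6 than those without (214 cells). Etv4 was 22.9 CPM (15.4 to 32.7) against 10.3 CPM (4.69 to 19.5), with overlapping intervals. Dusp6 was 31.3 CPM (22.5 to 42.4) against 12.5 CPM (6.26 to 22.4), whose intervals did not overlap. The former cells were deeper, with a median of 4838 against 2926.5 gene UMIs. Etv5 was 46.6 and 46.8 CPM, and Spry2 106 and 103 CPM. In uninjured cord, the 1380 astrocyte-like cells with an Etv4 UMI had Dusp6 at 32 CPM (27.8 to 36.8) against 22.7 CPM (19.4 to 26.4) in the 2252 cells without one, and Fgfr2 at 275 (262 to 288) against 233 CPM (222 to 244). Etv5 was 103 and 102 CPM, so an Etv4 UMI did not mark cells with more Etv5. These cells had median depths of 4144.5 and 2947 gene UMIs.

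The other classes rest on smaller numbers of cells. In ependymal-like cells Fgfr3 was 101 CPM in uninjured (16 UMIs in 8 cells) and 18.9 CPM in injured cord (32 UMIs). The ratio was 0.187 (0.0997 to 0.365). Summed astrocyte markers in these cells were 1874 CPM in uninjured and 1269 CPM in injured cord, and their part in this ratio was not tested. Etv5 had 43 UMIs in injured and 0 in uninjured ependymal-like cells, with a lower limit of 1.04 for the ratio. Its level intervals, 18.4 to 34.2 CPM and 0 to 23.3 CPM, overlapped. A 2-fold difference of Etv5 is therefore not shown, in a class where 10.1% of 9747 genes were 2-fold higher and 13.9% lower after injury. In microglia-like cells Etv5 was 94.1 CPM (11 UMIs) in uninjured and 23.3 CPM (44 UMIs) in injured cells, a ratio of 0.247 (0.126 to 0.531), in a class where 22.3% of 8092 genes were 2-fold lower. These uninjured cells had 11 Etv5 UMIs beside 3 of Fgfr3, while uninjured astrocyte-like cells had 1403 and 7783. Summed astrocyte markers were 214 CPM in the uninjured microglia-like cells, and their part in the Etv5 count was not tested. Fgfr3 had 3 UMIs or fewer in either condition of microglia-like and endothelial-like cells, and no comparison is drawn from them.

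In fibroblast-like cells all 9 genes passed, and 2 were lower at 2-fold (Etv4 and Etv5) and 0 higher, beside 14.5% and 12.8% of 9487 genes. The Etv5 ratio of 0.455 (0.194 to 1.07) included 1. Fgfr1 had a ratio of 0.504 (0.383 to 0.664), opposite to that of astrocyte-like cells. The class consisted of different clusters in the conditions, since all 43 injured cells but only 47 of the 95 uninjured cells were in cluster 9, and the other 48 formed cluster 12, led by Apod and Dcn. Within cluster 9 Fgfr1 was 158 CPM after injury and 222 CPM without, and the ratio of 0.711 (0.47 to 1.11) included 1. The 10 uninjured Etv4 UMIs of the class were all in cluster 12. Within cluster 9 the Etv5 ratio was 0.784 (0.215 to 4.29) and included 1. Fgfr2 had a ratio of 0.551 (0.339 to 0.924) within cluster 9.

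The other genes of the pathway were read in the same astrocyte-like sums, from 6 lists of 95 genes, of which 53 passed the filter. At 2-fold 9 of the 53 were higher and 5 lower in injured cells, beside 11.6% and 6.27% of all genes, and their median log2 ratio was -0.09. The filter acts on the mean of both conditions, and 6 of the 9 higher genes were under 10 CPM in uninjured cells, while 0 of the 5 lower genes were under it in injured cells. Over all genes this held for 335 of 1099 higher and 132 of 592 lower ones. Of 18 FGF ligands, 2 passed. Fgf1 was 163 CPM in uninjured and 131 CPM in injured cells (log2 ratio -0.31), and Fgf2 was 16.7 and 46.2 CPM (1.42). Fgf7, a ligand of the epithelial isoform of FGFR2, was found at 29.1 CPM in injured fibroblast-like cells. No UMI of Fgf4, Fgf6 or Fgf15 was seen in any class.

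Among 12 co-receptors and related receptors 7 passed, with 0 higher and 1 lower, beside 11.6% and 6.27% of all genes. The lower one was Flrt2 (147 CPM uninjured, 60.8 CPM injured, log2 ratio -1.26), a membrane protein of the FLRT family. The heparan sulfate proteoglycans went both ways, with Sdc3 (0.94) and Gpc1 (0.92) on one side and Sdc2 (-0.65) and Gpc4 (-0.54) on the other. Fgfrl1, a receptor without a kinase domain, was 76.5 CPM in uninjured and 135 CPM in injured cells (0.81). In the cascade from adaptors to ERK, 18 of 19 genes passed and none crossed 2-fold. The highest log2 ratios were those of Mapk3 (0.99), which encodes ERK1, Hras (0.93) and Nras (0.82), and the lowest those of the exchange factors Sos2 (-0.97) and Sos1 (-0.80) and the adaptor Gab2 (-0.86).

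Of 14 further feedback inhibitors 9 passed and 1 was lower, the phosphatase gene Dusp1 (24.6 CPM uninjured, 11 CPM injured, log2 ratio -1.09), while 0 were higher. Over all genes 6.27% were lower and 11.6% higher. Dusp5, another phosphatase gene, did not pass, and is named after its values were seen because it went the other way, with 27 UMIs in injured and 9 in uninjured cells, a ratio of 18.8 (8.59 to 45.5). Spred2 stood just inside the limit (138 and 68.6 CPM, a ratio of 0.497), Errfi1 had a log2 ratio of -0.39, and Spred3, Il17rd and Dusp7 had 0.18, 0.08 and -0.05.

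The 15 other genes known as ERK targets included 9 that passed, of which 6 were higher and 1 lower, beside 11.6% and 6.27% of all genes. The median log2 ratio of the 9 was 2.10. Of the 6, 5 passed only through the injured cells (all but Fos), so the filter favoured higher genes in this count and median. Ccnd1, encoding cyclin D1, was 1.46 CPM in uninjured and 123 CPM in injured cells (5.66), Ier3 2.19 and 25.1 CPM (3.04), and Fos 17.1 and 99.7 CPM (2.48). Egr1, Phlda1 and Emp1 were the other higher ones. Epha4, an ephrin receptor, was lower (162 and 73.6 CPM, -1.13), and Etv1, the third gene of the PEA3 group, was 49.7 and 28.8 CPM (-0.77), a ratio of 0.58 (0.44 to 0.751). In the same sums, all 3 PEA3 genes had more CPM in uninjured cells and Fos and Egr1 had more in injured cells. Of these, Etv4 was selected on this contrast and Egr1 passed the filter only through the injured cells.

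Among 17 other receptor tyrosine kinases and EGF family ligands 8 passed, with 2 higher and 2 lower, beside 11.6% and 6.27% of all genes. Met, the receptor of hepatocyte growth factor, had 47 UMIs in injured and 2 in uninjured cells, a ratio of 147 (38.6 to 1253). Met passed the filter only through the injured cells. Hbegf, a ligand of the EGF receptor, was 40.7 CPM in uninjured and 244 CPM in injured cells (log2 ratio 2.55). Erbb4 (1539 and 635 CPM, -1.28) and Igf1r (238 and 103 CPM, -1.20) were lower. Pdgfrb was at -0.92 and Ntrk2 at 0.34.

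**Figure D4:**
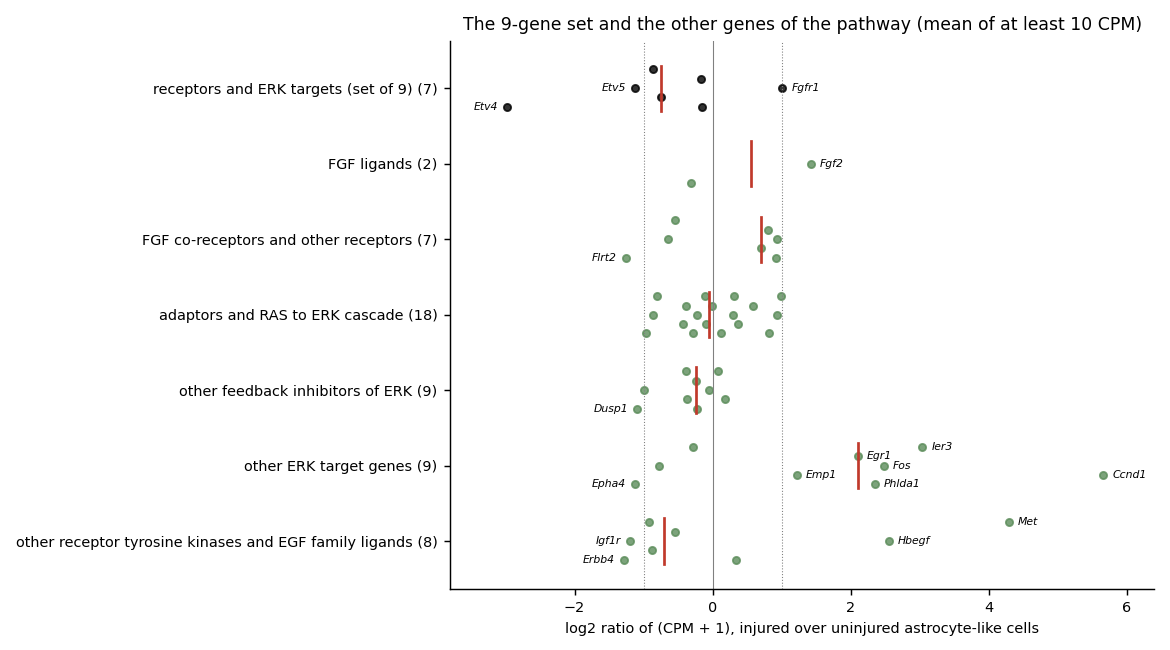
Log2 ratio of CPM + 1 in injured over uninjured astrocyte-like cells (x axis) of the 9-gene set and 6 lists of pathway genes (rows, with the number that passed in parentheses). Each point is a gene, red bars are list medians, dotted lines mark 2-fold and genes past it are named. The ERK target list has its median at 2.10, and Etv4 is the lowest point at -2.98. In that list 5 of the 6 higher genes passed only through the injured cells, and Etv4 was selected on this contrast.

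Over 13 sums of cells by class and condition with at least 100000 gene UMIs, the genes whose log2 levels were most like those of Etv4 were Eps8 (Pearson r = 0.919), Phactr3 (0.911), Gria2 (0.910), Hmgcs1 (0.908) and Ttc19 (0.904), out of 4115 genes compared. Those most like Etv5 were Slc9a9 (0.890), the feedback inhibitor Spred1 (0.882), Fam49a (0.858), Celf2 (0.843) and Dock10 (0.816). Within the set, Etv4 was most like Spry2 (0.804) and Fgfr3 (0.693), and less like Etv5 (0.570). Fgfr2 and Fgfr3 had r = 0.771, and Dusp6 ran against Fgfr2 (-0.561). The points share 2 libraries and differ in depth, so these values are descriptions of how the classes line up.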

How the data were processed

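Gene expression was measured by single-cell RNA-seq (10x, 3′ end) in tdTomato-sorted cells, with 1 library per condition. The authors deposited raw UMI counts per gene and cell, without normalisation, as 1 matrix per condition. Per the file headers these came from Cell Ranger 7.1.0, while the submitters' processing notes name 8.0.1. Whether reads in introns were counted is not given in the sources used here. Enhancer barcodes, amplified from 25% of the cDNA, are features of the same matrices and were used only for the summed level given at the end.

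The study's limits on cells were used (gene UMIs above 500 and below 50000), which removed 40 injured and 0 uninjured cells. Per cell, counts were brought to a total of 10000, log transformed and clustered on 2000 variable genes without the 9 genes, tdTomato, EGFP and the enhancer features (scanpy 1.11.5, 15 principal components, 15 neighbours, Leiden resolution 0.5). This gave 13 clusters, of which 12 were named in 7 classes from fixed marker lists, 5 of them astrocyte-like. The marker score (scanpy gene score above 0.2) replaced a first version after its class names had been seen, since that version left astrocytes unnamed. Doublets were not removed, because Scrublet called 2 injured and 0 uninjured cells.

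Sums of UMIs per class were divided by summed gene UMIs. Log2 ratios had 1 CPM added on both sides. Intervals (exact Poisson, Clopper-Pearson and conditional binomial, 95%) and limits for 0 counts (3 counts) cover counting error only. The ratio was tested on simulated data with 200 changed genes among 9437, drawn with counting error only. A true log2 ratio of -3.0 had a median estimate of -2.66. Intervals covered the true value for 95.4% of unchanged genes and for 86% of genes at a true log2 ratio of 1.5. The simulation held no spread between cells or animals. The text names all 9 genes, up to 3 genes with the highest and 3 with the lowest ratio of each pathway list, FGF ligands reaching 20 CPM and the 5 genes most like Etv4 and Etv5. Egr1, Phlda1 and Emp1 are named as called genes. The 9 genes and the lists were chosen with earlier results of these data known. Gene positions came from GENCODE M21 on GRCm38 by identifier (32158 of 32285 matched, 99.6%), and promoters from RefSeq on GRCm38.p6.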

Additional observations from a re-analysis of the deposited data

Results flagged for a closer look

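Etv5 had 43 UMIs in injured and 0 in uninjured ependymal-like cells, with a lower limit of 1.04 for the ratio and overlapping level intervals. With 3 counts put over the uninjured group the ratio would be 1.34. In astrocyte-like cells the log2 ratio of Etv5 was -1.12. Fgfr1 had a log2 ratio of -0.98 in fibroblast-like cells and 1.01 in astrocyte-like cells. Within cluster 9, the fibroblast-like cluster with cells of both conditions, its ratio was 0.711 (0.47 to 1.11) and included 1. With 1 library per condition, the difference between the classes was not tested for either gene.

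The enhancer barcodes, which the comparisons above do not use, reached 269.0 UMIs per 1000000 gene UMIs in injured astrocyte-like cells (588 UMIs) and 58.7 in uninjured ones (806 UMIs).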

How the results depend on the processing

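Of 135 log2 ratios under alternative settings, 117 stayed within the counting interval of the reported value, 18 left it and 0 changed the sign of a value whose interval excluded 1. Etv4 moved to -2.50 with a pseudocount of 10 CPM, and thinning cells to 1000 gene UMIs gave -2.27 for Etv4, -1.73 for Etv5, -0.67 for Dusp6 and -1.12 for Fgfr2. Without the cluster led by Gfap and Lcn2, added after seeing the data, the values were -4.28 for Etv4, -1.46 for Etv5, -0.95 for Spry2, -0.03 for Spry4, -1.86 for Dusp6, -0.22 for Fgfr2 and -0.26 for Fgfr3. That cluster held 37 of 39 injured Etv4 UMIs and 50 of 52 injured Dusp6 UMIs, so these 2 genes were left with very few. The mean of the cells' CPM gave 0.75 for Fgfr1, -1.08 for Fgfr2 and -0.93 for Fgfr3. Male cells alone gave -0.67 for Fgfr2, cells with an Aldh1l1 UMI gave -0.90 and Leiden resolution 1.0 gave -0.59 for Fgfr3. The count of genes higher at 2-fold, 1 as reported, was 0 with a pseudocount of 10 CPM, resolution 1.0, cells with an Aldh1l1 UMI, the unnamed cluster included, the mean of the cells' CPM, thinning, without the 5% of cells with the highest Scrublet scores, without the cluster of lowest depth (also added after seeing the data) and without the Gfap and Lcn2 cluster. The count of lower genes, 2 as reported, was 1 with a pseudocount of 10 CPM and 3 with the mean of the cells' CPM, thinning, no filter on low values and without the Gfap and Lcn2 cluster. The causes were not tested. Scaling by the median ratio of genes shifted all log2 ratios against CPM (factor -0.08 on the log2 scale) and left both counts as they were.

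Each condition is 1 pooled library, so differences between animals, dissociations or libraries cannot be told apart from injury, and in sorted cells the mix of captured cells and the RNA per cell move together. Spry1 and Spry4 are limited by 3 to 94 UMIs. Leaving out a replicate was not possible. No paired analysis was possible because there is only 1 gene expression library on either side.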

Other observations

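The unnamed cluster was led by Nefl, Snap25 and Nefm, and its make-up differed between the conditions. Summed astrocyte markers were 12050 CPM in its uninjured and 1221 CPM in its injured cells, and neuron markers 1266 and 1903 CPM. Counting intervals of the injured over uninjured ratio were below 1 for Etv4, Etv5, Spry2, Fgfr1 and Fgfr3. The part of the differing make-up in these ratios was not tested, and no share over all genes is given for this cluster. Its 327 uninjured cells had Fgfr3 at 480 CPM (438 to 525), Etv4 at 141 CPM (119 to 166) and Spry2 at 87.3 CPM (70 to 108), and its 46 injured cells had 39.4 CPM (14.4 to 85.7), 6.56 CPM (0.166 to 36.6) and 6.56 CPM. Fgfr2 was 166 CPM in the former and 125 CPM in the latter, with a ratio of 0.753 (0.442 to 1.21). The injured cells had a median of 1744 gene UMIs and the uninjured ones 2174.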
